A study of Mus musculus with 4 samples.

Results

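The Hox genes and the limb and muscle factors of the Tbx, Pitx, Meis, Pbx, Lbx, Six-family and Eya genes were examined in muscle stem cells (MuSCs) of mouse plantaris, a calf muscle of the hindlimb. Members were the protein-coding genes whose names carry one of these family names and a number, and 46 of the 19353 genes in the count table met this rule. Of these, 43 are described, 20 of them Hox genes. Another 28 genes with such names in the GENCODE M21 annotation, among them Pitx1 and 8 of the 9 Hoxd genes, had no row and were not analysed here.

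All mice carried Pax7-CreERT2:Rosa-YFP, in which tamoxifen lets a Cre recombinase driven by Pax7 switch on yellow fluorescent protein, so that the YFP sort takes cells that expressed Pax7 at the time of induction together with their descendants. The plantaris was overloaded by cutting the distal tendons of gastrocnemius and soleus (tenotomy), and sham muscle had the skin incision alone. Cells were collected 4 days after surgery into tubes of 100 cells, and CEL-Seq2 libraries were made, in which the poly(A) end of each captured transcript receives a random tag, the unique molecular identifier (UMI). There were 2 sham libraries, with 269683 and 260488 UMIs, and 2 overloaded libraries, with 387955 and 483528 UMIs. The sources used here give no age and do not say whether replicate libraries stem from separate mice, so p-values measure only the spread between these libraries, which may be technical. Of the MuSC markers, 10 of 10 were detected in all libraries, with Pax7 at 118 and 107 UMIs in sham and 108 and 137 in overloaded, and Myf5 at 244, 168, 388 and 467. After TMM normalization 6 of these 10 markers were lower in overloaded, against 26.3% of all tested genes. Among them were Calcr (37 and 57 against 15 and 15 UMIs, log2 fold change -2.60) and Chodl (196 and 188 against 114 and 105, -1.76). Cdh15 and Itga7 were higher (0.47 and 0.67), against 25.8% of all tested genes.

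Hox proteins are homeodomain transcription factors encoded in 4 clusters, and the genes at the 5′ ends of the clusters, with the highest numbers, are expressed in the posterior trunk and the limbs. Adult cells keep much of the Hox pattern of the place where they arose. Pbx and Meis proteins belong to the TALE class of homeodomain proteins and bind DNA together with Hox proteins. Tbx4 and Pitx1 mark the hindlimb and Tbx5 the forelimb, Lbx1 directs the migration of muscle precursors into the limb, and the Six-family proteins with their Eya coactivators activate myogenic genes such as Myog.

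Of the 43 genes, 25 were detected in every library, and all 43 together accounted for 331 and 326 UMIs in the sham libraries and 634 and 843 in the overloaded libraries. In UMIs per 100000 this was 122.7 and 125.1 in sham and 163 and 174 in overloaded. A total of 19 genes had enough counts to be tested. After TMM normalization, 8 of these were higher and 1 lower in overloaded MuSCs at an adjusted p of 0.1 (quasi-likelihood test of edgeR, Benjamini-Hochberg adjustment over 7228 genes), and 10 did not pass. Over all tested genes 52.1% were called, 25.8% higher and 26.3% lower, so that 9 called of 19, or 47.4%, was a share near the background. Normalized values of the groups did not overlap for 14 of the 19 genes, 9 higher and 5 lower, against a background of 72.9% (37.5% higher and 35.4% lower). The higher genes were Hoxa9, Hoxa10, Pbx3, Tbx4, Tbx15, Six2, Six4 and Eya3, and the lower gene was Hoxc10. Log2 fold changes of the 19 genes had a median of 0.37, against 0.05 over all tested genes. With abundance offsets, which take out the trend of fold change with mean level, these medians were 0.15 and 0.02. The filter on low counts bears on these numbers, because Hoxa9, Pbx3 and Eya3 passed it through the overloaded libraries alone, with no sham library above the filter's level of 30.4 CPM (UMIs per library brought to one total). Of the 11 genes with both sham libraries above that level, 2 were higher (Six4 and Tbx15) and 1 was lower (Hoxc10). In libraries of this kind, fewer expressing cells and less RNA per cell cannot be told apart.

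**Figure D1:**
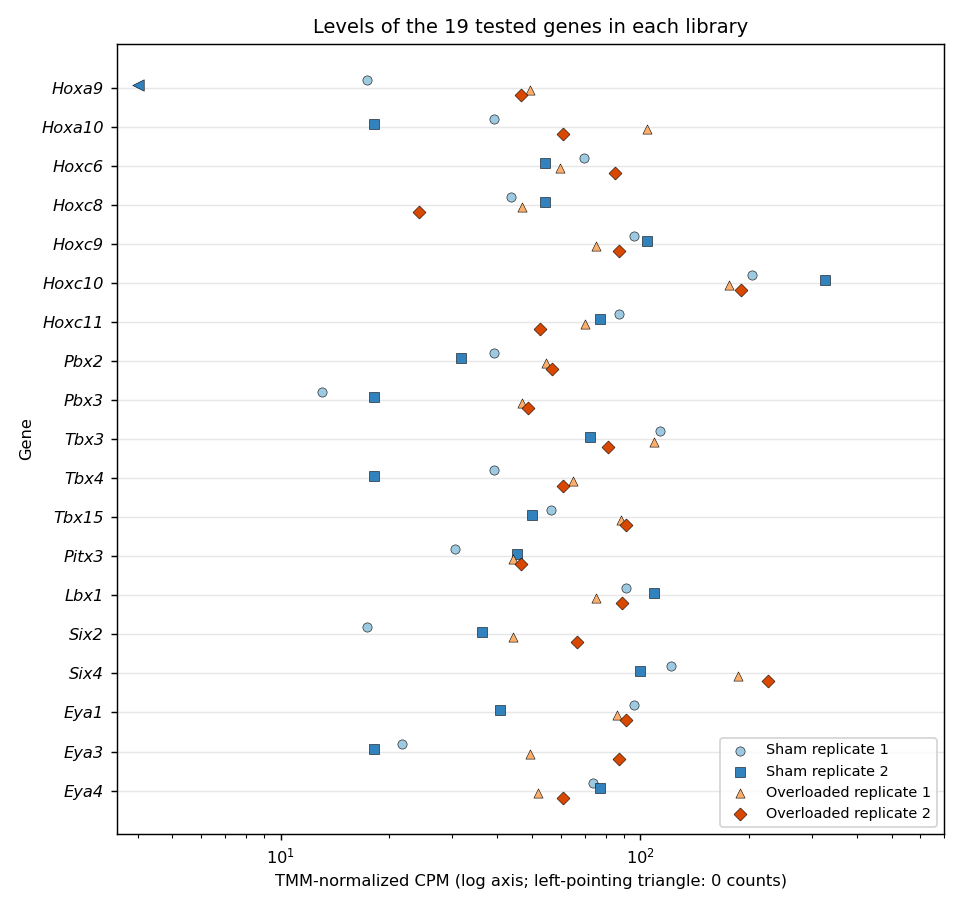
TMM-normalized counts (CPM, log axis) of the 19 tested genes, with 1 point per library (2 sham in blue, 2 overloaded in orange) and a left-pointing triangle for 0 counts. The called genes Hoxa9, Hoxa10, Pbx3, Tbx4, Tbx15, Six2, Six4 and Eya3 have both overloaded libraries above both sham libraries, as does Pbx2, not called. Hoxc10, which was called lower, has both below, as do Hoxc9, Hoxc11, Lbx1 and Eya4, which were not called. Normalized values of the groups were separate for 72.9% of all tested genes.

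Hox transcripts came almost entirely from the Hoxc and Hoxa clusters. The Hoxc genes gave 122 and 143 UMIs in the sham libraries and 175 and 229 in the overloaded libraries, whereas the 3 Hoxb genes in the table gave 0, 0, 1 and 2 UMIs and Hoxd8, the only Hoxd gene, gave 1, 0, 2 and 1. Each transcript gives 1 tag at its 3′ end, so counts were compared between genes without division by length, although capture may differ from gene to gene.

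Hoxc10, a paralog group 10 gene of posterior regions including the hindlimb, had more UMIs than any other Hox gene in each library, with 47 and 72 UMIs in sham and 68 and 94 in overloaded. In GRCm38 it spans 102966796 to 102971893 of chromosome 15 (plus strand). Its normalized level was 205 and 326 CPM in sham and 177 and 190 CPM in overloaded, so that the normalized values of the groups were separate while the raw counts overlapped. The log2 fold change was -0.52 with SE 0.22 (adjusted p = 0.059), and without sham replicate 2 it was -0.15 (adjusted p = 0.70). The call was lost, too, with library sizes alone (adjusted p = 0.36), under abundance offsets, which take out the trend of fold change with mean level (0.49), with DESeq2 (0.28), with no filter (0.15) and at an adjusted p of 0.05, and per tube of 100 cells, with no scaling between libraries, the log2 fold change was 0.44 (adjusted p = 0.19). It was kept in 7 of 14 alternatives.

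Its neighbours Hoxc6, Hoxc8, Hoxc9 and Hoxc11 were tested and none passed, with log2 fold changes of 0.24, -0.50, -0.29 and -0.44. Hoxc9 had 22 and 23 UMIs in sham against 29 and 43 in overloaded, and Hoxc11, the most 5′ of the tested Hoxc genes, had 20 and 17 against 27 and 26. Hoxc6 had 16 and 12 against 23 and 42 UMIs, and Hoxc8 had 10 and 12 against 18 and 12. After normalization Hoxc9 and Hoxc11 were lower in both overloaded libraries than in both sham libraries, whereas the groups overlapped for Hoxc6 and Hoxc8. The 95% confidence intervals of these 4 log2 fold changes all included 0, and the widest was that of Hoxc8, from -1.41 to 0.40. Hoxc4 had too few counts to be tested, at 7, 6, 10 and 6 UMIs.

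In the Hoxa cluster 2 of 8 genes were tested and both rose, against 25.8% called higher over all tested genes. Of these, Hoxa9 passed the filter on low counts through the overloaded libraries alone. Hoxa10 (chromosome 6, 52231197 to 52240854, minus strand) had 9 and 4 UMIs in sham against 40 and 30 in overloaded, or 39.2 and 18.1 against 104 and 60.8 CPM. Both overloaded libraries lay above both sham libraries, and the log2 fold change was 1.47 with SE 0.45 (adjusted p = 0.014), a 2.77-fold rise. Hoxa9, its neighbour at 52223100 to 52231089, had 4 and 0 UMIs in sham against 19 and 23 in overloaded (log2 fold change 2.38, SE 0.64, adjusted p = 0.0063). Against sham replicate 2 alone, where no Hoxa9 molecule was seen, the overloaded level was at least 3.52-fold higher with a floor of 3 counts in that library. Leaving out any 1 library kept the call of Hoxa10 (1.03 to 2.13), and with DESeq2 the gene was just short of the threshold (log2 fold change 1.51). Hoxa9 was at 1.44 without sham replicate 2, still past the threshold, and at -0.07 with the abundance offsets.

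The other Hoxa genes were sparse. Hoxa11 had 0 and 3 UMIs in sham against 14 and 5 in overloaded, Hoxa7 had 4, 3, 5 and 15, Hoxa5 had 5, 6, 7 and 13, and Hoxa13 had 1, 2, 2 and 0, and none of the 4 was tested. The last 500 exonic bases of Hoxa7 are all covered by the antisense gene Hoxaas3, and the strand setting of the counting is not given in the sources used here, so reads of these genes may be mixed or lost. Hoxa11 overlaps Hoxa11os over 35.0% of its exonic bases but not in its last 500.

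**Figure D2:**
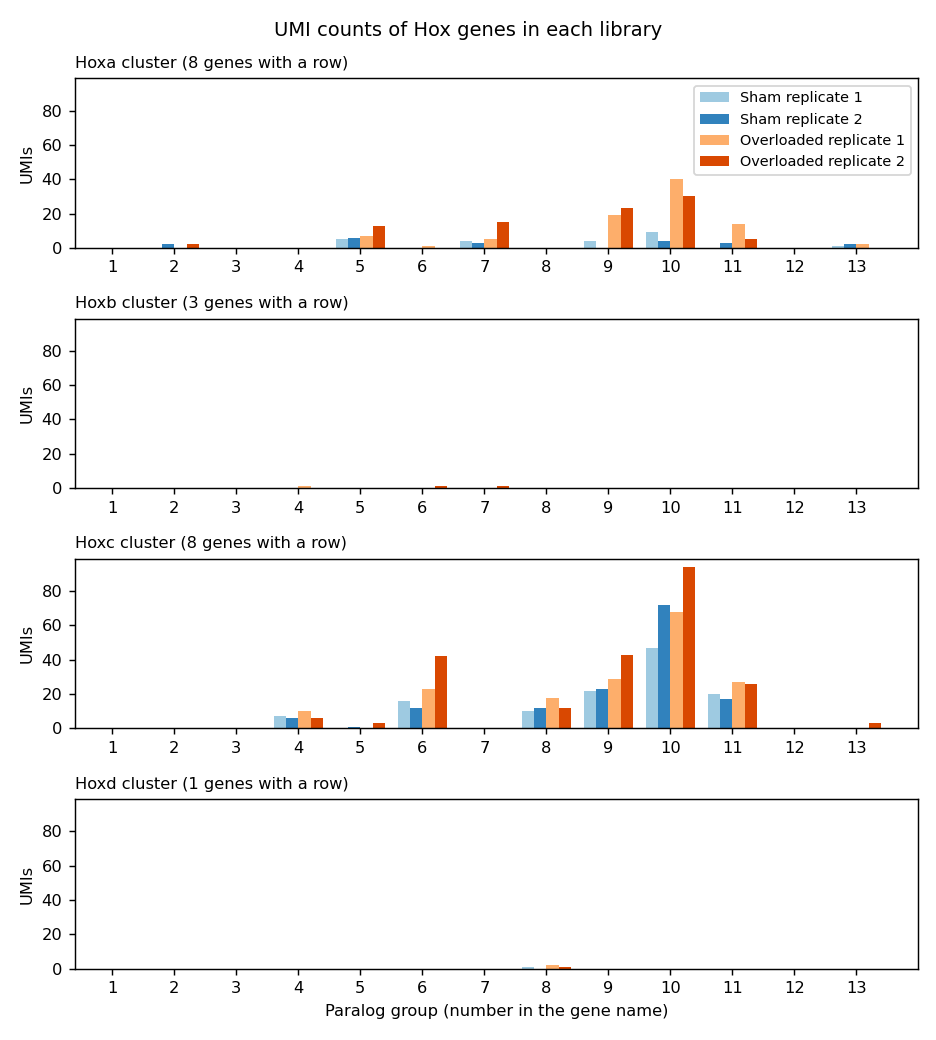
UMI counts (not normalized) of the 20 Hox genes by cluster and paralog group, 1 bar per library. Hoxc10 stands highest in every library, reaching 94 UMIs in overloaded replicate 2. Hoxa5, Hoxa7, Hoxa9, Hoxa10, Hoxa11, Hoxc6, Hoxc9 and Hoxc11 are taller in both overloaded libraries, which hold more UMIs in total, than in both sham libraries. The Hoxb and Hoxd panels hold at most 2 UMIs per gene and library.

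The balance between the clusters can be read within each library, where no scaling enters. Shares may still carry the trend of fold change with mean level. With tested genes ranked by abundance in bins of 10%, the bins of Hoxa9 and Hoxa10 had median log2 fold changes of 1.12 and 0.25. The bin of Hoxc10 had -0.38, and those of Hoxc6, Hoxc8, Hoxc9 and Hoxc11 had 0.13, 0.31, 0.11 and 0.13. Under the abundance offsets Hoxa9 was at -0.07 and Hoxa10 at 1.26. The part of this trend in the shares was not tested. Hoxa genes made up 15.8% (23 of 146 Hox UMIs, 95% Wilson interval 10.7% to 22.5%) and 12.3% (20 of 163, 8.09% to 18.2%) of Hox molecules in sham. In overloaded MuSCs the share was 33.1% (88 of 266, 27.7% to 38.9%) and 27.5% (88 of 320, 22.9% to 32.6%). Both overloaded libraries lay above both sham libraries, and their intervals, which cover counting error only, did not reach those of the sham libraries. The Hoxc share, which has to fall where the Hoxa share rises, was 83.6% and 87.7% in sham and 65.8% and 71.6% in overloaded, while the Hoxc level was 45.2 and 54.9 against 45.1 and 47.4 UMIs per 100000. Hoxc10 alone gave 32.2% and 44.2% of Hox molecules in sham and 25.6% and 29.4% in overloaded. This share and that of Eya3 were chosen after their values were seen and were not tested, since 2 libraries against 2 cannot give a two-sided exact permutation p below 0.333.

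**Figure D3:**
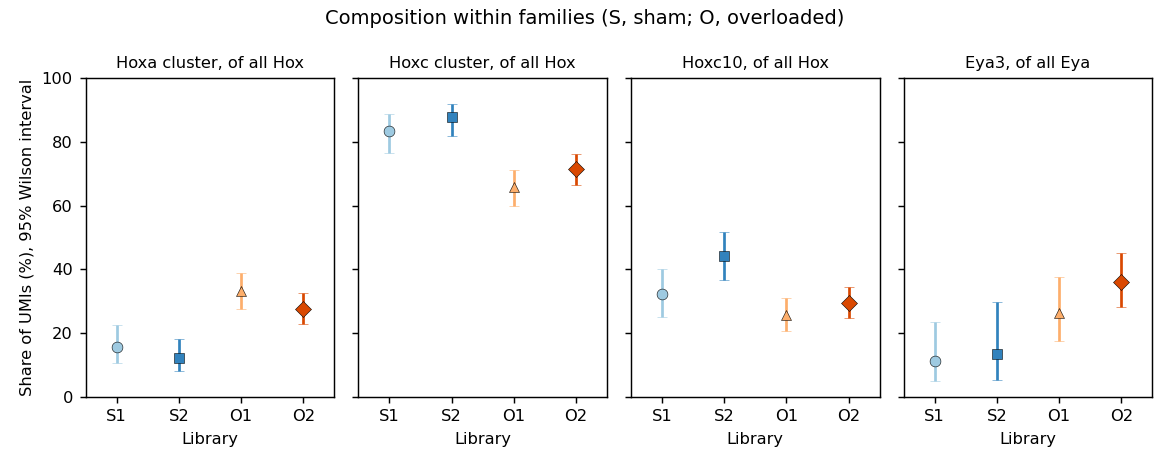
Share of UMIs (percent) held by the Hoxa cluster, the Hoxc cluster and Hoxc10 among Hox genes and by Eya3 among Eya genes in each library, with 95% Wilson intervals for counting error. Sham libraries lie at 12.3% to 15.8% for Hoxa and overloaded libraries at 27.5% to 33.1%, and the Eya3 share is 11.1% and 13.3% in sham and 26.4% and 36.1% in overloaded.

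Hoxa10 is shown with the sequence around its start as the Hoxa gene with the most UMIs over the 4 libraries together (83). The RefSeq promoter table (GRCm38.p6, 250 bases before to 50 after each start) held 26 of the 43 genes. The stretch of Hoxa10 at chr6:52234890-52235189, minus strand, surrounds 1 of 2 starts listed for the gene, the one inside its annotated span. Capitals mark matches to CCAAT and TATAAA, searched on both strands and here both on the opposite strand, which occur in 37.4% and 13.6% of the 32851 promoters in the table. The motifs do not overlap each other, and the matches are a description of letters only.
Hoxa10: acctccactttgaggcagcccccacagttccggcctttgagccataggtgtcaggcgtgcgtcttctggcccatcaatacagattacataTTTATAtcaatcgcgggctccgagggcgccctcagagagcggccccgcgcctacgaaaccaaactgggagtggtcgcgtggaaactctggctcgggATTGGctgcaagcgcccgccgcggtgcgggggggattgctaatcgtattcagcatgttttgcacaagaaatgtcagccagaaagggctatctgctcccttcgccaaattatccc

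Among the TALE cofactors, Pbx3 rose. Pbx3 (chromosome 2, 34171457 to 34373142, minus strand) had 3 and 4 UMIs in sham against 18 and 24 in overloaded, a 3.03-fold rise (SE of the log2 value 0.48, adjusted p = 0.013). Pbx3 passed the filter on low counts through the overloaded libraries alone. With 1 library left out its log2 fold change was 1.38 to 1.85, in fits that kept that filter. Its call was lost under the abundance offsets (0.74, adjusted p = 0.30) and with DESeq2 (adjusted p = 0.18). Pbx2, at 9 and 7 UMIs in sham and 21 and 28 in overloaded, had a log2 fold change of 0.65 that was not past the threshold (95% confidence interval -0.20 to 1.49, adjusted p = 0.20). Some exonic bases of Pbx2 (6.2%) are shared with Gpsm3, a gene on the same strand.

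The Meis genes, whose products partner with Pbx and Hox, were scarce, with Meis1 at 3, 4, 2 and 5 UMIs and Meis3 at 6, 4, 5 and 6 UMIs, and neither was tested.

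Of the T-box pair that marks fore- and hindlimb, the hindlimb gene was detected in every library and the forelimb gene hardly at all. Tbx4, the hindlimb T-box gene on chromosome 11 from 85886422 to 85916097 (plus strand), had 9 and 4 UMIs in sham against 25 and 30 in overloaded, whereas Tbx5, the forelimb gene, had 1 UMI in all 4 libraries together. In sham replicate 1 and both overloaded libraries Tbx4 gave 9, 25 and 30 of the UMIs of this pair, and Tbx5 gave none. Tbx4 was at 28.6 ± 14.9 CPM in sham and 62.9 ± 3.01 CPM in overloaded (SD, n = 2 each), which is 1.11 on the log2 scale with SE 0.43 (adjusted p = 0.045). Without sham replicate 2 the log2 fold change was 0.67 and not past the threshold (adjusted p = 0.33), and it was also not past it with DESeq2 (adjusted p = 0.27) or the abundance offsets (adjusted p = 0.13).

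Tbx15, a T-box gene known for its part in skeletal and muscle fiber-type development, was at 56.6 and 49.8 CPM in sham and 88.4 and 91.1 CPM in overloaded. The difference of 0.75 on the log2 scale (SE 0.33, adjusted p = 0.077) did not pass when any 1 library was left out (log2 fold changes 0.66 to 0.85, adjusted p = 0.12 to 0.25). Tbx3, a gene of limb patterning, overlapped between the groups, at 113 and 72.5 against 109 and 81.0 CPM, with a 95% confidence interval of the log2 fold change from -0.64 to 0.66. Tbx6, a gene of the early somites, had 7, 10, 3 and 6 UMIs and was not tested.

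Pitx3, a homeodomain factor with a known part in myogenic cells, and Lbx1 were detected in every library, and neither passed the threshold after TMM normalization. Pitx3 had 7 and 10 UMIs in sham against 17 and 23 in overloaded (log2 fold change 0.27, 95% confidence interval -0.60 to 1.13), and Lbx1 had 21 and 24 against 29 and 44 (-0.27, interval -0.88 to 0.34). After normalization Lbx1 was lower in both overloaded libraries. In UMIs per tube the log2 fold change of Lbx1 was 0.69, also not past the threshold (adjusted p = 0.12), whereas Pitx3 passed there (1.22, adjusted p = 0.031).

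Among the tested Six-family and Eya genes, Six2, Six4 and Eya3 were called higher and none of those described was called lower. Six4 (chromosome 12, 73099609 to 73113456, minus strand) had 28 and 22 UMIs in sham against 72 and 112 in overloaded, and was at 122 and 99.7 CPM in sham and at 187 and 227 CPM in overloaded. Both overloaded libraries lay above both sham libraries, and the log2 fold change was 0.91 with SE 0.23 (95% interval 0.42 to 1.40, adjusted p = 0.0046), a 1.88-fold rise. Six4 kept its direction and its call in each of the 14 alternative settings, with values of 0.75 to 1.06 when 1 library was left out.

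Six2, better known from kidney and connective tissue, had 4 and 8 UMIs in sham against 17 and 33 in overloaded (log2 fold change 1.07, SE 0.46, adjusted p = 0.070). Its rise was not past the threshold without sham replicate 1 (0.64, adjusted p = 0.38) or without overloaded replicate 2 (0.72, adjusted p = 0.36). Six5 had 3, 5, 6 and 6 UMIs and was not tested.

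Eya3, a coactivator and phosphatase of the Eya family on chromosome 4 from 132638987 to 132724765 (plus strand), had 5 and 4 UMIs in sham against 19 and 43 in overloaded. In CPM this was 21.8 and 18.1 against 49.4 and 87.1, with both overloaded libraries above both sham libraries, and the log2 value rose by 1.79 with SE 0.48 (adjusted p = 0.0065). Eya3 kept its call in each of the 14 alternative settings, as Six4 did, but unlike Six4 it passed the filter through the overloaded libraries alone. With 1 library left out the log2 fold change of Eya3 ranged from 1.29 to 2.12. Its share of Eya UMIs was 11.1% and 13.3% in sham (5 of 45 and 4 of 30, 95% Wilson intervals 4.84% to 23.5% and 5.31% to 29.7%) and 26.4% and 36.1% in overloaded (19 of 72 and 43 of 119, 17.6% to 37.6% and 28.1% to 45.1%).

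Eya1 and Eya4, which partner with Six-family proteins in muscle precursors, were not past the threshold. Eya1 was at 95.8 and 40.8 CPM in the sham libraries and 85.8 and 91.1 CPM in the overloaded libraries, so that sham replicate 2 alone stood apart. Its log2 fold change was 0.37 (adjusted p = 0.42), 1.11 without sham replicate 1 (adjusted p = 0.061) and -0.11 without sham replicate 2 (adjusted p = 0.85). Eya4 was at 74.0 and 77.0 against 52.0 and 60.8 CPM (log2 fold change -0.41, 95% confidence interval -1.11 to 0.29). Both of its overloaded libraries lay below both sham libraries.

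**Figure D4:**
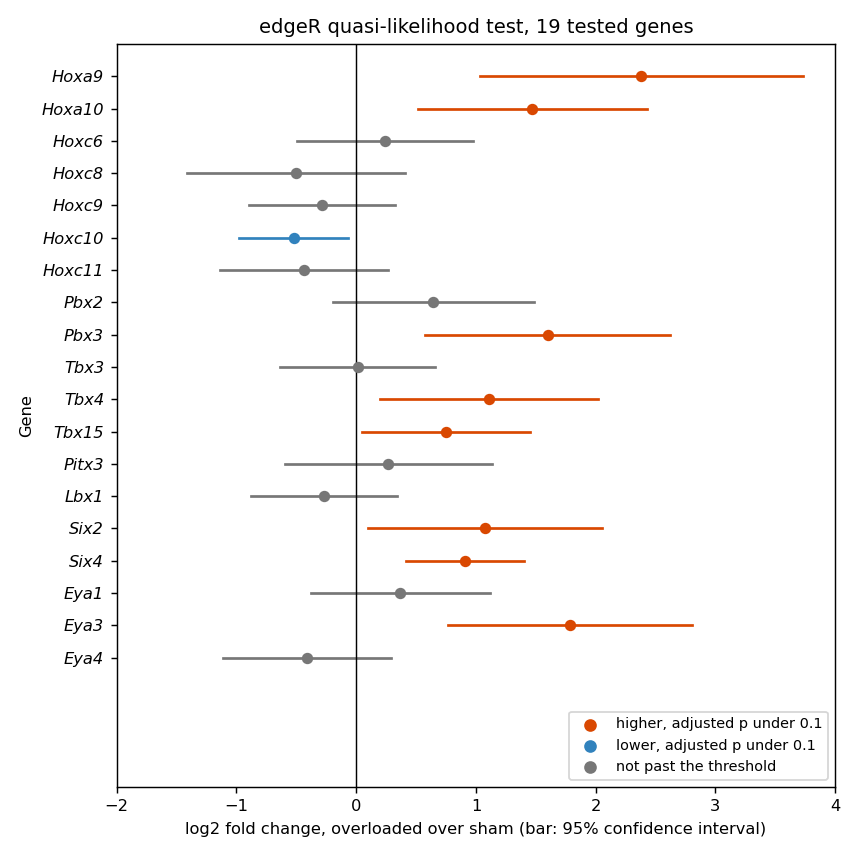
Log2 fold change of overloaded over sham for the 19 tested genes in family order, with 95% confidence intervals, orange for higher and blue for lower at an adjusted p under 0.1. The 8 higher genes span 0.75 for Tbx15 to 2.38 for Hoxa9, the lower gene is Hoxc10 (-0.52), and the 10 gray genes have intervals that include 0.

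Six-family proteins bind a short element known as MEF3, and Myog is a known gene with such an element before its start. The promoters of Six4 and Myog are shown because both genes rose and both hold the letters TCAGGTT of this element, marked in capitals, at 97 bases (Six4, opposite strand) and 84 bases (Myog, same strand) before the start. Both strands were searched, the letters do not hold the E-box CANNTG, and 4.07% of the 32851 promoters have a match. The Six4 stretch is chr12:73113196-73113495, minus strand, 1 of 2 listed for the gene, and that of Myog chr1:134289754-134290053, plus strand (RefSeq, GRCm38.p6). Of the 29 promoters listed for the described genes, 2 had a match, 1 for Six4 and 1 for Six6. A match does not show that the site is used.
Six4: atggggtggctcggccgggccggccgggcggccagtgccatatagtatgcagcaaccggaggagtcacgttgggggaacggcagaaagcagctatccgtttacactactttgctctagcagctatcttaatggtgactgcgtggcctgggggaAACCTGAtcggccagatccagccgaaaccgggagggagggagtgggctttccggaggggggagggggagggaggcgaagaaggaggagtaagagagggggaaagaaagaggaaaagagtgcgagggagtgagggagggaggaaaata
Myog: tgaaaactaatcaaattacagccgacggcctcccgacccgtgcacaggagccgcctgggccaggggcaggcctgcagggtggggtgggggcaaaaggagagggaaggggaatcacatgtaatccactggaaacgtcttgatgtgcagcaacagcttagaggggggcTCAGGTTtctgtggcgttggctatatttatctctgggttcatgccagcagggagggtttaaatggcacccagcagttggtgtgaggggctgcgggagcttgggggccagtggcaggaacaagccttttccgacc

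The Pax-Six-Eya-Dach network and its myogenic targets were followed with a list of 10 genes, of which 6 were tested, 2 rising and 2 falling. Myog, a myogenic factor of differentiation, rose from 52 and 49 UMIs to 246 and 282 (log2 fold change 1.43, SE 0.18, and 2.04 under the abundance offsets). Mef2c, which encodes a transcription factor of differentiating muscle, rose from 9 and 2 to 57 and 63 UMIs (2.47, adjusted p = 1.5e-04), with 3.87 without sham replicate 1 and 1.80 without sham replicate 2, both past the threshold. Sobp, a cofactor of Six-family proteins, fell from 28 and 34 to 15 and 30 UMIs (-1.43, adjusted p = 0.0015), and Pax7 was lower at -0.84 (adjusted p = 6.4e-04), but at -0.22 and not past the threshold under the abundance offsets (adjusted p = 0.30). Myf5 and Myod1 had log2 fold changes of 0.10 and 0.29 and did not pass after TMM normalization. Both passed with library sizes alone (0.37 and 0.57), under the abundance offsets (1.10 and 0.97) and per tube (1.05 and 1.25). Dach2 was without a row, and of the 3 other genes that were not tested, Pax3 had 8, 2, 2 and 4 UMIs, Myf6 1, 0, 11 and 24, and Dach1 0, 1, 1 and 1.

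Further lists held the partners and regulators of these families. Among 11 TALE genes outside the Pbx and Meis families, 3 were tested, and Tgif1 (127 and 116 against 94 and 120 UMIs, log2 fold change -1.14, adjusted p = 4.0e-05, with -0.54 when abundance offsets were used) and Pknox1 (50 and 51 against 32 and 51 UMIs, -1.25, adjusted p = 2.9e-04) were lower. Of 22 further limb patterning factors, 6 were tested. Gli3, a transcription factor of the Hedgehog pathway, was higher (7 and 9 against 41 and 40 UMIs, 1.38, adjusted p = 0.0073), whereas Gli2 of the same pathway was lower (9 and 16 against 8 and 9 UMIs, -1.50, adjusted p = 0.010), although not without sham replicate 2 (adjusted p = 0.196) or with DESeq2 (0.144). En1 was lower (-0.66, adjusted p = 0.062), a call lost without sham replicate 2, overloaded replicate 1 or overloaded replicate 2, with no filter (adjusted p = 0.199), with DESeq2 (0.324), with library sizes alone (0.278) and at an adjusted p of 0.05. Of 15 regulators of Hox genes, most of them chromatin factors, 10 were tested, and Cdx1, Cdx2, Cdx4 and Hotairm1 were without a row. Kdm6b, which encodes a demethylase of histone H3, fell from 325 and 286 to 234 and 197 UMIs (-1.44, adjusted p = 1.3e-05), or by less under the abundance offsets (-0.49, still past the threshold). Kmt2a and Rnf2 were lower (-0.65 and -0.81), Kmt2a not under the abundance offsets (-0.09, adjusted p = 0.71), and Bmi1, of Polycomb repressive complex 1, was higher (0.92, adjusted p = 0.022), but not without overloaded replicate 2 (adjusted p = 0.129) or with DESeq2 (0.199). In all, 4 of the 25 tested genes of these 4 lists were higher and 9 were lower, and the 52.0% called was a share near the background of 52.1%. In UMIs per tube 12 were higher and 1, Kdm6b, was lower. There Pax7, En1, Kmt2a and Rnf2 pointed the other way, and Sobp, Pknox1, Tgif1 and Gli2 were no longer past the threshold.

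The calls moved with the scale and the tool. Per tube of 100 cells, edgeR called 13 of the 19 genes higher and 0 lower, against a background of 66.6%, with 62.0% higher and 4.58% lower. Eya1, Hoxc6, Pbx2, Pitx3 and Tbx3 were called there but not after TMM normalization. The median log2 fold change of all tested genes per tube was 1.01. Under the abundance offsets 3 were higher, Hoxa10, Six4 and Eya3, and 0 lower, where the background was 20.8% and 21.6%. DESeq2 gave an adjusted p for 27 of the 43 genes and called 3 of these (11.1%) higher, Hoxa9, Six4 and Eya3, and 0 lower, against 9.34% and 11.7% of all genes with an adjusted p. With no filter all 43 genes were tested and 7 (16.3%) were higher and 1 (2.33%) lower, against 12.7% and 9.32% of all genes. The lower gene was there Tbx6 (7 and 10 against 3 and 6 UMIs), named after its values were seen, and not Hoxc10 (adjusted p = 0.15). Without overloaded replicate 2 there were 6 higher and 1 lower, against 20.3% and 22.2%. At an unadjusted p of 0.05, 9 of the 19 genes (47.4%) passed after TMM normalization, against 51.6% of all tested genes. Log2 fold changes over all tested genes had a median of 1.12 among the 10% least abundant, which held 2 of the members. Among the 10% most abundant, which held 0, it was -0.77. In bins of 10% between these, medians were 0.36, 0.31, 0.25, 0.13 and 0.11 from bin 2 to bin 6. These bins held 1, 5, 1, 5 and 3 members. Bin 7 (median 0.09) held 0, and bins 8 and 9 (-0.14 and -0.38) held 1 each. Under the abundance offsets the median of the tested members was 0.15, against 0.37 with TMM.

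**Figure D5:**
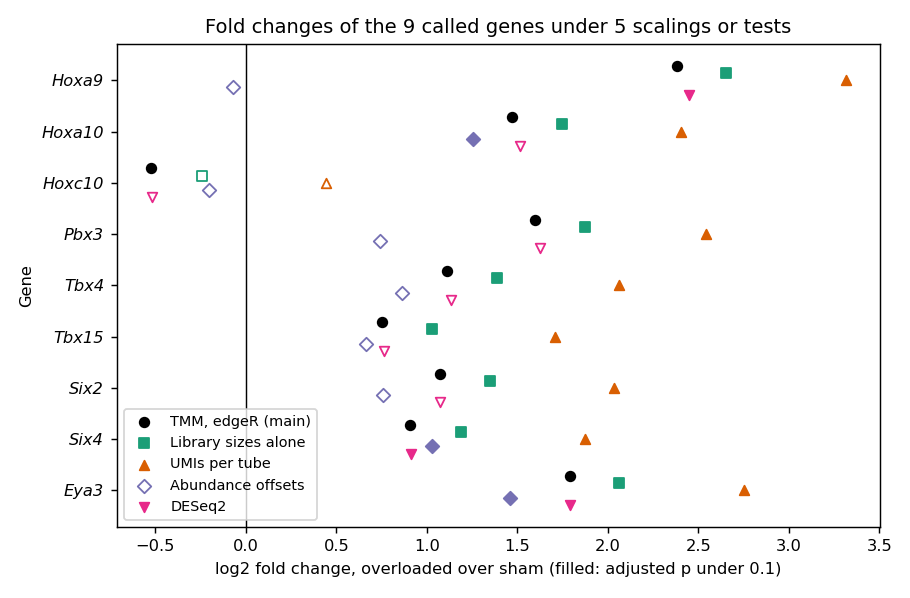
Log2 fold changes of the 9 called genes under TMM with edgeR, library sizes alone, UMIs per tube, abundance offsets and DESeq2, filled where the adjusted p was under 0.1. Six4 and Eya3 are filled under all 5, Hoxc10 lies above 0 in UMIs per tube (0.44), and Hoxa9 lies just under 0 with the abundance offsets (-0.07).

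Markers of other cell types were counted in the same libraries. Per 100000 UMIs, the summed lists of leukocyte, myofiber, mural, tendon and endothelial markers stood higher in both overloaded libraries. The 8 leukocyte markers summed to 2 and 5 UMIs in sham and 56 and 120 in overloaded, led by Lyz2 (0, 0, 17 and 38), with 6 of the 8 at 0 in sham and Ptprc at 0, 1, 1 and 4. The 6 myofiber markers summed to 275 and 158 against 840 and 947 UMIs, led by Acta1, with Myh1 and Myh2 at 0 in sham. The 6 mural markers summed to 177 and 153 against 458 and 674, led by Acta2, with Myh11 at 0, 0, 0 and 3, whereas Tagln of the same list was lower after normalization (41 and 36 against 49 and 49 UMIs, log2 fold change -0.61). The 4 tendon markers summed to 1 and 2 against 48 and 61, nearly all from Scx, with Tnmd at 0, 0, 1 and 0 and Kera without a row. The 8 fibro-adipogenic markers summed to 840 and 779 against 1159 and 1270, or 311 and 299 against 299 and 263 per 100000 UMIs, led by Col3a1, with Pdgfra at 0, 0, 2 and 0 and Tcf21 without a row. Within this list Ly6a was higher (1 and 0 against 22 and 41 UMIs) and Cd34 lower (32 and 38 against 20 and 15). The 6 endothelial markers summed to 18, 16, 37 and 39 UMIs, or 6.67 and 6.14 against 9.54 and 8.07 per 100000 UMIs, although Tek of this list was lower (10 and 12 against 5 and 11 UMIs, log2 fold change -1.41, adjusted p = 0.015). The 4 Schwann cell markers summed to 2, 2, 7 and 3 UMIs. The part of these cells in the rises of Hoxa9, Hoxa10, Pbx3, Six2, Six4, Tbx4, Tbx15 and Eya3 was not tested.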

How the data were processed

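The authors extracted barcodes and UMIs with UMI-tools (version 1.0.0), aligned reads to GRCm38 with HISAT2 (version 2.1.0), assigned them with featureCounts (version 1.6.4), and deposited UMI counts for 19353 genes, not normalized. The annotation and strand setting are not given in the sources used here. All 19353 gene identifiers matched GENCODE M21.

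Genes were kept by filterByExpr (minimum count 10, minimum total 15), library sizes were the UMIs of the 7228 genes kept, and TMM factors were 0.909, 0.908, 1.08 and 1.12. CPM values are counts scaled to a common total by these factors. Genes were tested with glmQLFit and glmQLFTest of edgeR (version 4.0.16, R version 4.3.3) at an adjusted p of 0.1, the threshold of the study's methods. A count of 3 was 11.5 CPM in the smallest library and 6.20 CPM in the largest, before scaling.

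Alternatives were DESeq2 (version 1.42.0), limma-voom (limma version 3.58.1), other scalings, filters and thresholds, a replicate block, and each library left out. Named genes were all tested members and untested members with at least 5 UMIs in total, the latter with counts only apart from the call of Tbx6 with no filter. The other 15 members had 1 to 4 UMIs each, and of these Hoxd8, Tbx5 and Six6 were named in the text. Context genes named were those of the first list, the untested with counts only, and those past the threshold in the others. Members and lists were chosen with earlier results of these data known. Python version 3.11.15 was used for tables and figures. Results of 3 members are not reported here.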

Additional observations from a re-analysis of the deposited data

How the results depend on the processing

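With 2 libraries per group and few UMIs per gene, small changes may have been missed, which was not tested. Of the 9 called genes, 2 (Six4 and Eya3) kept call and direction in all 14 alternatives, and 5 did so with each library left out in turn. In a fit with a library left out, the lone library of its group was assumed to vary like the others. With library sizes alone, 9 members were higher and 0 lower, against 37.3% and 18.7% of all tested genes, and 7 context genes were higher and 8 lower. The median of the tested members was there 0.64, and Lbx1 was at 0.0085, while the median of all tested genes rose from 0.05 to 0.33. In UMIs per tube, 4481 genes were higher and 331 lower, 13 members higher and 0 lower, and 12 context genes higher and 1 lower, with medians of 1.32 for members and 1.01 for all tested genes, and changed signs at 0.55 (Eya4), 0.44 (Hoxc10), 0.52 (Hoxc11), 0.44 (Hoxc8), 0.68 (Hoxc9), 0.69 (Lbx1), 0.12 (Pax7), 0.30 (En1), 0.30 (Kmt2a) and 0.15 (Rnf2). Under abundance offsets, 3 members were higher and 0 lower, the member median was 0.15 (0.37 with TMM), with Hoxa9 at -0.069 and Tbx3 at -0.056. DESeq2 called 967 genes higher and 1215 lower, and of the members 3 higher and 0 lower. At an adjusted p of 0.05, 6 members were higher and 0 lower, against 21.4% and 22.7% of all tested genes (9 members had an unadjusted p under 0.05 with edgeR). With at least 10 counts in both libraries of a group Tbx3 was at -0.057. The cause was not tested. Leaving out 1 library gave 6 to 7 members higher and 0 to 1 lower, 3 to 6 context genes higher and 7 to 10 lower, 1464 to 1696 genes higher and 1570 to 1739 lower, and a member median of 0.32 to 0.64. Eya1 ranged from -0.11 to 1.11, Tbx3 from -0.27 to 0.37, Hoxc6 from -0.055 to 0.46 and Myf5 from -0.12 to 0.36.

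The replicate number as a block gave 8 members higher and 1 lower, and 1806 genes higher and 1864 lower. Deviations of same-numbered libraries had a correlation of -0.04. The study describes sham muscle as contralateral to the operated muscle in some other experiments. For these libraries the sources used here do not say whether a sham and an overloaded library came from the same mouse. The numbers were therefore not taken as pairs.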

Other observations

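Noncoding RNAs of the Hox clusters lay outside the comparison and were not tested. Hotair, a long noncoding RNA of the Hoxc cluster, had 11 and 4 UMIs after sham surgery against 3 and 5 after overload, so that sham replicate 1 stood apart from the others. Hoxa11os had 1, 3, 2 and 5 UMIs, and Hoxaas3 had 1, 4, 0 and 1.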
